A study of Mus musculus with 15 samples.

Results

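The genes described here are 34 mouse genes of cholesterol and fatty acid synthesis and their control, chosen by gene symbol out of 41591 gene IDs in a count table of the whole epididymis. They fall into 5 roles. The mevalonate steps, from acetyl-CoA to the isoprenoid farnesyl diphosphate, have 7 genes (Acat2, Hmgcs1, Mvk, Pmvk, Mvd, Idi1 and Fdps). The sterol steps, from squalene to cholesterol, have 11 (Fdft1, Sqle, Lss, Cyp51, Tm7sf2, Msmo1, Nsdhl, Hsd17b7, Ebp, Sc5d and Dhcr7). Control and transport within the cell has 5 (Insig1, Srebf1, Srebf2, Scap and Stard4). Fatty acid synthesis, elongation and desaturation has 9 (Fasn, Acaca, Acly, Elovl5, Elovl6, Scd1, Scd2, Fads1 and Fads2), and cholesterol efflux has 2 (Abca1 and Abcg1). All 34 IDs were found, and all 34 passed the filter on low counts, with at least 247 counts in every library.

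Cells make cholesterol from acetyl-CoA in a long chain of enzymes, most of which are transcribed together under the SREBP transcription factors. SCAP carries SREBP from the endoplasmic reticulum to the Golgi, where it is cut and released, and INSIG1 holds SCAP back when sterols are plentiful. When oxysterols build up, the liver X receptors switch on the efflux pumps ABCA1 and ABCG1 and, through SREBP1c, fatty acid synthesis. In the epididymis, the duct in which sperm mature and are stored, the epithelium handles sterols and polyunsaturated lipids as the sperm membrane is remodelled, and loss of the liver X receptors in mice is known to disturb the lipid content and structure of this epithelium.

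The study compared 3 genotypes of the zinc-finger transcription factor gene Plag1 in mice aged 7 weeks with the strain label Brown Swiss: 5 knockouts (KO, Plag1 -/-), 5 heterozygotes (HET, Plag1 -/+) and 5 wild types (WT), with 1 library per animal and no other allele or treatment in the labels. Whole epididymides were teased apart in PBS and rinsed to remove sperm, so each library mixes all regions and cell types of the organ, and the labels do not say whether the deletion was limited to any cell type. In such bulk samples, fewer cells of a type and less RNA per cell cannot be told apart. Nothing in the labels gives litter or collection day. The p-values rest on the spread between animals within each genotype and take the 15 animals as independent.

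Library depth ran from 25.3 to 42.0 M counts in KO, from 23.6 to 33.8 M counts in HET and from 20.3 to 27.8 M counts in WT. The targeted gene had 6.99 to 9.37 CPM in KO (HET 8.11 to 11.8 CPM, WT 11.9 to 14.0 CPM), so its RNA was lower but present in KO. KO-738 had the most of it among KO, at 9.37 CPM, close to KO-739 at 9.16 CPM. KO-694, KO-738 and KO-739 lay inside the HET range, and all KO libraries lay below all WT libraries. Whether the genotype label of KO-738 is right was not tested. Markers of epididymal principal cells, the main cells of the duct, summed to between 45727 and 66594 CPM in KO, between 56736 and 67595 CPM in HET and between 54605 and 64247 CPM in WT. Libraries are named by genotype and animal number. Some stood apart. KO-738 had 165 CPM of 12 macrophage markers and 1990 CPM of 8 fibroblast markers, with 229 to 251 CPM and 2750 to 3536 CPM in the rest of KO, and at most 165 CPM and 2031 CPM in WT. KO-695 held 398 CPM of fat cell markers, against 74.9 to 115 CPM in WT, and KO-739 held 5165 CPM of skeletal muscle markers, against 39.8 to 80.8 CPM in WT. KO-696 held 253 CPM of 12 sperm and germ cell markers, with between 57.4 and 164 CPM in the rest of KO, between 81.1 and 143 CPM in HET and between 47.8 and 116 CPM in WT. Animal numbers below 700 belong to 3 of 5 KO, 2 of 5 HET and 0 of 5 WT animals.

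The promoters of Hmgcs1, Idi1, Cyp51, Insig1 and Elovl5 are shown because these genes mark the ends of the pattern below: Idi1, Cyp51 and Insig1 had among the smallest p-values for lower KO levels in their roles, Hmgcs1 had nearly equal levels in KO and WT, and Elovl5 passed the test in the other direction. The sequences are from RefSeq on GRCm38.p6, from 250 bases before to 50 bases after the start, 5′ to 3′ on the gene's strand. Capitals mark matches to the CCAAT box (CCAAT, or ATTGG on the other strand) and to the sterol element TCACNCCAC.
Hmgcs1, chr13:119690101-119690400, + strand: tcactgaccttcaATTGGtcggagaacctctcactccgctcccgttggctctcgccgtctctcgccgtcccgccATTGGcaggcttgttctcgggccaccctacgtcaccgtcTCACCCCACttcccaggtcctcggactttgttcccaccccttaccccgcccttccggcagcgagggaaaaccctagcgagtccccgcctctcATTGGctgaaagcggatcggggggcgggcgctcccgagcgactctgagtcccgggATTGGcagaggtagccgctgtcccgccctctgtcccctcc
Idi1, chr13:8885356-8885655, + strand: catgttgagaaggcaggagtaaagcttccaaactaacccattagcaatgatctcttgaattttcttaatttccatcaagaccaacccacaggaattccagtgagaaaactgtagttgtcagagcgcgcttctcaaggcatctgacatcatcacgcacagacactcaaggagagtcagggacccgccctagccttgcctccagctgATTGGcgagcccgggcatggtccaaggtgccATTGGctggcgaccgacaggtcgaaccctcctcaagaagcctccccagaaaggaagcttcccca
Cyp51, chr5:4104648-4104947, − strand: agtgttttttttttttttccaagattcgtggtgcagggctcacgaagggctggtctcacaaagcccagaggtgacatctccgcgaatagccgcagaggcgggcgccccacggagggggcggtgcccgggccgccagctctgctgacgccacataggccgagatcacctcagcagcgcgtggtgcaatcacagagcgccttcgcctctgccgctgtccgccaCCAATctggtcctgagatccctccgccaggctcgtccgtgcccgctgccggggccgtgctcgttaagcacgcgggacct
Insig1, chr5:28071162-28071461, + strand: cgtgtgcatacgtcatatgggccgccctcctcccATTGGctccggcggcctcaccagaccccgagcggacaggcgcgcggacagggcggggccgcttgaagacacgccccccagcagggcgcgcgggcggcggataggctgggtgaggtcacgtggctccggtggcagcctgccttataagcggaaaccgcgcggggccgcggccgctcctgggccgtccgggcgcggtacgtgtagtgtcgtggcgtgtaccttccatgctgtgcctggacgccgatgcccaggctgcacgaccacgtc
Elovl5, chr9:77917115-77917414, + strand: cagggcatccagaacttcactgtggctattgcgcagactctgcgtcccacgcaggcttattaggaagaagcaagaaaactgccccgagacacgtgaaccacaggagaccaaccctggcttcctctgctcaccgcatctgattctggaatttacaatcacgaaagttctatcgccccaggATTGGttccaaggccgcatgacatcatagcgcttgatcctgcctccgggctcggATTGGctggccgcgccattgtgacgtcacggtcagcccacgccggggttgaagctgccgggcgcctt

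Promoters on chromosome 18, where Stard4 lies, were left out for the 34 genes but not for the set of all promoters, so Stard4 was not searched. Of the 34 genes, 26 had at least 1 promoter in the RefSeq table after this step, 32 promoters in all. CCAAT, on either strand, was found in 21 of the 32 promoters (65.6%) and in 37.4% of all 32851 promoters of the same length. Hmgcs1 held 4 copies, Idi1 and Elovl5 held 2 each, and Cyp51 and Insig1 held 1 each. TCACNCCAC was found in 1 of the 32, that of Hmgcs1, and in 1.24% of all promoters. The E-box CACGTG was found in 8 (25%, against 7.15% of all) and the GC box GGGCGG in 24 (75%, against 35.7% of all). The 32 promoters had a median GC content of 62.3% against 52.7% for all promoters, and a match describes letters only. Copies of these motifs can share letters where they adjoin.

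**Figure D1:**
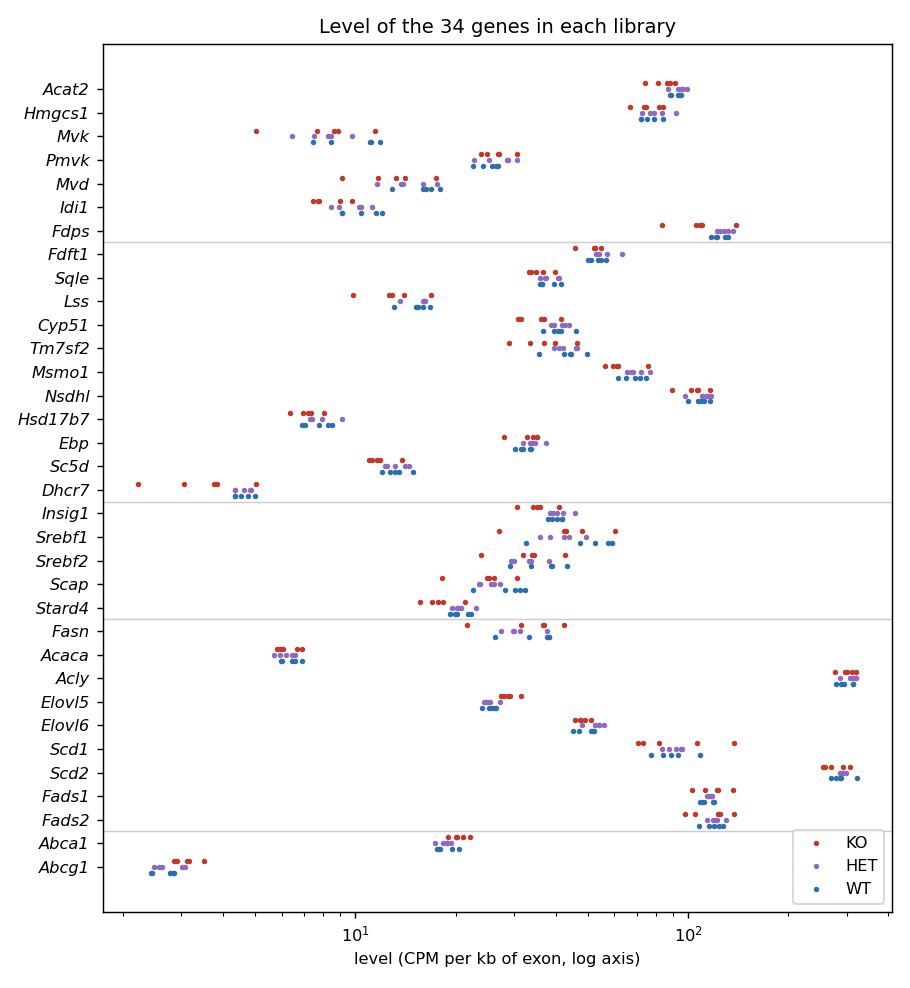
Level of each of the 34 genes in each library, in CPM per kb of exon on a log axis, with KO above HET above WT in each row and 1 point per library. Acly and Scd2 lie furthest right, near 300 CPM per kb, and Abcg1 and Dhcr7 furthest left, and for most genes the points of the 3 genotypes overlap.

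Levels between genes are compared per kb of exon. Acly, the enzyme that makes cytosolic acetyl-CoA for both pathways, had the highest level of the 34, with 301 ± 16.2 CPM per kb in KO, 309 ± 14.2 in HET and 297 ± 15.6 in WT (SD, n = 5 each, as in all means here). Scd2, a desaturase that makes monounsaturated fatty acids, came next, with 276 ± 22.5 CPM per kb in KO, 291 ± 4.51 in HET and 289 ± 19.6 in WT, a gap to Acly that lies within the spread of the WT libraries. In the same order by WT level followed Fdps (124 ± 6.12 CPM per kb in WT), the desaturases Fads2 (119 ± 7.57) and Fads1 (114 ± 4.79), the sterol dehydrogenase gene Nsdhl (109 ± 6.02), Acat2 (92.1 ± 3.36) and Scd1 (90.3 ± 11.6). Neighbours among Fdps, Fads2, Fads1 and Nsdhl differed by less than their combined SD. The lowest levels in WT belonged to Abcg1 (2.67 ± 0.209 CPM per kb), Dhcr7 (4.59 ± 0.265), Acaca (6.39 ± 0.385) and Hsd17b7 (7.70 ± 0.719). Within the sterol steps the WT levels ran from 4.59 for Dhcr7 to 109 CPM per kb for Nsdhl, so enzymes that act near each other in the chain differed widely in RNA level.

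Between KO and WT, 1 of the 34 genes passed the test over all genes, against 6.0% of the 19388 genes tested. The gene was Elovl5, which was higher in KO (2.94% of the 34, against 4.40% of all genes called higher). The test was edgeR's quasi-likelihood test with Benjamini-Hochberg adjustment and a threshold of 0.05. Levels of the 5 KO and 5 WT libraries did not overlap for 2 of the 34 (5.88%), Elovl5 and Abcg1, both higher in KO, against 4.21% of all genes tested and 2.84% in that direction. Of the 34 log2 fold changes, 26 (76.5%) were negative, with a median of -0.09, whereas the median of all genes tested was -0.01 and 46.8% were positive. At an unadjusted p under 0.05, 7 of the 34 were lower in KO (20.6%, against 9.78% of all genes) and 3 were higher (8.82%, against 13.8%). Between HET and WT, 0 of 34 passed, against 0% of all genes tested by edgeR, 0 of 34 had an unadjusted p under 0.05, against 4.40% of all genes, and DESeq2 called 1 gene in all. HET and WT levels overlapped for all 34, whereas 1.04% of all genes did not overlap. Between KO and HET, Elovl5 alone passed, higher in KO (2.94% of the 34, against 1.96% of all genes and 1.61% called higher), and it alone did not overlap, against 3.60% of all genes. In this comparison 24 of 34 values were negative, with a median of -0.09, and 11 were lower in KO at an unadjusted p under 0.05 (32.4%, against 9.23% of all genes). Both comparisons use the same KO libraries, so they are not independent of each other.

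**Figure D2:**
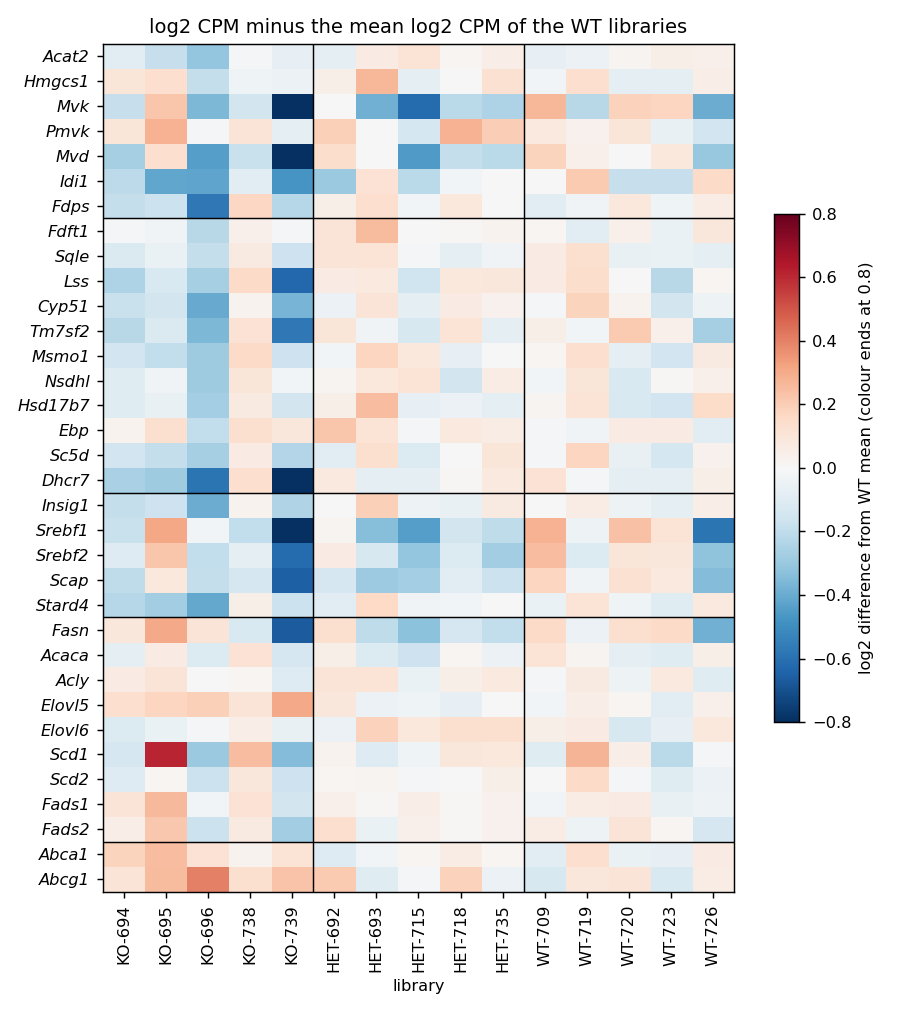
Log2 CPM of each gene in each library minus the mean log2 CPM of the 5 WT libraries, with genes grouped by role from mevalonate steps (top) to efflux (bottom) and libraries ordered KO, HET, WT. Blue cells, below WT, fill most of the sterol rows in KO-696 and KO-739 but not in KO-738, and the efflux rows at the bottom are red in KO.

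Elovl5 encodes the elongase that lengthens polyunsaturated fatty acids. It is NCBI Gene 68801, on chromosome 9 at 77917365 to 77984519 (GRCm38.p6, + strand), and shares no exon with another gene in GENCODE M21. Its level was 77.9, 79.9, 81.2, 76.1 and 87.8 CPM in KO, against 75.8, 68.7, 69.2, 67.8 and 70.7 CPM in HET and 70.0, 73.7, 71.7, 66.7 and 73.2 CPM in WT. Every KO library lay above every HET and WT library, with KO-739 highest and KO-738 lowest among KO, and HET and WT overlapped. Elovl5 averaged 80.6 ± 4.45 CPM in KO, 70.5 ± 3.15 CPM in HET and 71.1 ± 2.80 CPM in WT. It rose by 0.18 ± 0.05 (SE) on the log2 scale in KO against WT (edgeR adjusted p = 0.0348), a fold of 1.13, and by 0.19 ± 0.05 in KO against HET (edgeR adjusted p = 0.0470), a fold of 1.14. The call is close to the threshold. It was lost when KO-695, KO-696, KO-739, WT-709, WT-720, WT-723 or WT-726 was left out, with values over all 15 such fits from 0.15 to 0.20 and edgeR adjusted p from 0.0109 to 0.0969. It was also lost in 6 of 13 other alternatives, with values from 0.13 to 0.21. In KO against HET it was lost in 9 of 15 such fits, those without KO-694, KO-695, KO-696, KO-739, HET-693, HET-715, HET-718, HET-735 or WT-709, with values from 0.16 to 0.24.

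The mevalonate genes had 6 of 7 values below 0 in KO against WT, with a median of -0.18 on the log2 scale, and 0 of 7 passed the test. Idi1 encodes isopentenyl-diphosphate isomerase, which makes the building block that farnesyl diphosphate synthase, encoded by Fdps, joins up. Idi1 had 27.1, 23.5, 23.4, 29.7 and 22.6 CPM in KO, against 25.6, 34, 27.1, 31 and 31.4 CPM in HET and 31.5, 36.4, 27.6, 27.7 and 34.8 CPM in WT. Of the KO libraries, KO-738 alone lay inside the WT range. The log2 fold change of KO over WT was -0.32 ± 0.10 (edgeR adjusted p = 0.0683). Fdps had 158, 160.0, 121, 202 and 154 CPM in KO, against 187, 198, 178, 192 and 181 CPM in HET and 170.2, 177, 192, 176 and 188 CPM in WT. Here KO-738 was the highest and KO-696 the lowest of all 15 libraries, and the log2 fold change of KO over WT was -0.18 ± 0.09 (edgeR adjusted p = 0.246).

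Hmgcs1, which encodes the synthase that commits acetyl-CoA units to HMG-CoA, had 284, 292, 233, 259.9 and 257 CPM in KO and 262, 292, 252, 252 and 276 CPM in WT, with a log2 fold change of -0.01 ± 0.07. Its HET libraries had 275, 320.3, 253, 267 and 289.9 CPM, and the 3 groups overlapped. Mevalonate kinase, encoded by Mvk, phosphorylates mevalonate. Mvk had 17.3, 22.8, 15.3, 17.7 and 10 CPM in KO, against 19.6, 15, 12.8, 16.9 and 16.6 CPM in HET and 23.6, 16.9, 22.3, 22.1 and 14.9 CPM in WT. Its values scattered within each genotype, and the log2 fold change was -0.26 ± 0.18 in KO against WT (edgeR adjusted p = 0.424). It was -0.30 ± 0.19 in HET against WT, the smallest p of the mevalonate genes there (edgeR adjusted p = 0.981). Mvd, the decarboxylase that follows, had -0.29 ± 0.15 in KO against WT, Acat2, an acetyl-CoA acetyltransferase at the start, had -0.13 ± 0.06, and Pmvk, the kinase between Mvk and Mvd, had 0.08 ± 0.08. Acat2 has a near copy, Acat3, next to it on chromosome 17, so its counts are uncertain.

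The sterol genes had 10 of 11 values below 0 in KO against WT, with a median of -0.12, and 11 of 11 in KO against HET, with a median of -0.16. None of the 11 passed the edgeR test in either. At an unadjusted p under 0.05, 3 were lower in KO against WT (27.3%, against 9.78% of all genes). In KO against HET, 5 were lower (45.5%, against 9.23% of all genes). Cyp51 encodes lanosterol 14-alpha-demethylase, the cytochrome P450 of the pathway. Cyp51 had 142, 145, 121, 163 and 124 CPM in KO, against 155, 172, 152, 168 and 164 CPM in HET and 159, 181, 163, 144 and 156 CPM in WT. KO-694, KO-696 and KO-739 lay below all WT libraries, and KO-695 and KO-738 lay among them. The log2 fold change of KO over WT was -0.21 ± 0.08 (edgeR adjusted p = 0.109).

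Dhcr7 encodes the reductase of the last step to cholesterol and had the largest difference of the sterol genes. It had 12.7, 12.5, 10.1, 16.7 and 7.37 CPM in KO, against 16.1, 14.4, 14.4, 15.3 and 16 CPM in HET and 16.5, 15, 14.4, 14.4 and 15.7 CPM in WT. KO-694, KO-695, KO-696 and KO-739 lay below all HET and WT libraries, and KO-738 lay above them all. The log2 fold change of KO over WT was -0.36 ± 0.15 (edgeR adjusted p = 0.153), and the SD among KO libraries was 3.45 CPM against 0.822 CPM in HET and 0.879 CPM in WT. Nsdhl, the sterol gene with the highest level per kb, had 220.5, 231, 193, 252 and 232 CPM in KO, against 239, 249, 255, 212 and 246 CPM in HET and 232, 252, 217, 237 and 242 CPM in WT. Its groups overlapped throughout and the log2 fold change of KO over WT was -0.06 ± 0.07.

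Ebp, the sterol isomerase, was the exception in direction, at 0.04 ± 0.06 in KO against WT and 0.09 ± 0.06 in HET against WT. Ebp had 57.1, 61.1, 48.9, 61.2 and 59.6 CPM in KO, against 65.2, 60.4, 55.5, 59.2 and 58.3 CPM in HET and 55.5, 55.0, 58.5, 58.7 and 52.6 CPM in WT, with full overlap. The other sterol genes had log2 fold changes of KO over WT between -0.22 and -0.05: Tm7sf2 -0.22 ± 0.11, Lss, which closes the sterol rings, -0.20 ± 0.11, Sc5d -0.15 ± 0.07, Msmo1 -0.12 ± 0.08, Hsd17b7 -0.10 ± 0.08, Sqle, which oxidises squalene, -0.09 ± 0.06, and Fdft1, which makes squalene, -0.05 ± 0.06. Counts of genes that share exon bases with another gene are uncertain. Shared bases were read from the full GENCODE M21 exon set, not from the annotation used for counting, which may lack some of the partners. The partner lies on the same strand for Fdps, with 26.7% of its exon bases shared, and for Tm7sf2, with 12.1%, so no strand setting separates these. It lies on the other strand, with the strand setting not given in the sources used here, for Fdft1 (18.3%), Scap (13.2%), Hmgcs1 (12.1%), Idi1 (9.22%), Cyp51 (3.76%) and Lss (3.53%).

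**Figure D3:**
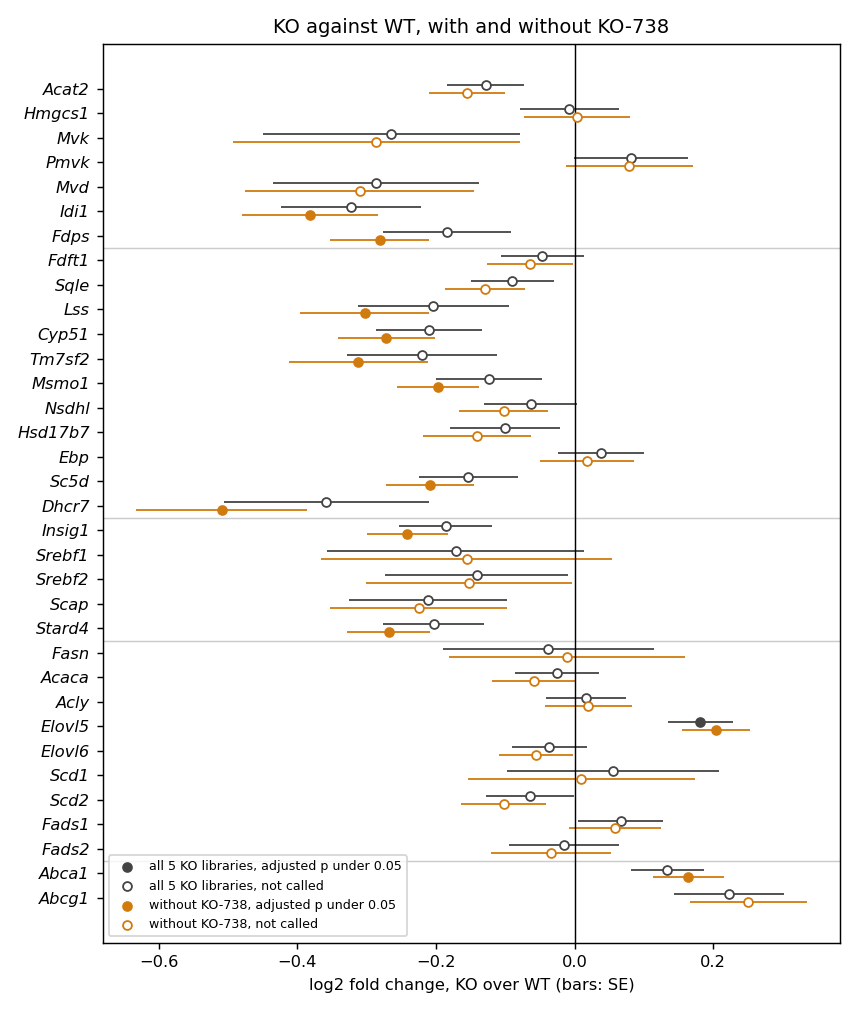
Log2 fold change of KO over WT for each gene with its SE, from all 5 KO libraries (dark) and without KO-738 (orange), with filled points where the edgeR adjusted p was under 0.05. With all libraries only Elovl5 is filled, and without KO-738 it is joined by 11 others, of which 10 lie left of 0 and Abca1 lies right of it.

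The mevalonate and sterol genes together are 18 cholesterol synthesis enzymes. Their summed level was 1836, 1874, 1591, 2033 and 1739 CPM in KO, against 1992, 2141, 1928, 1955 and 2005 CPM in HET and 1947, 2034, 1940, 1885 and 1973 CPM in WT. KO-694, KO-695, KO-696 and KO-739 lay below all HET and WT libraries, and KO-738 lay just under the top of the WT range. KO-738 was the highest KO library for 14 of the 18, and KO-695 for the other 4, Hmgcs1, Mvk, Pmvk and Mvd. KO-696 was the lowest of all 15 libraries for 11 and KO-739 for 6. Of the 18, KO-696 had 16 below all WT libraries, KO-739 had 11, KO-694 had 9, KO-695 had 6 and KO-738 had 0. The HET libraries had from 0 (HET-735) to 4 (HET-715). Shares over all genes are not given here for these counts, so whether they are particular to the 18 is not known. The median log2 difference from the WT mean over the 18 was 0.07 in KO-738, -0.20 in KO-739, -0.28 in KO-696, -0.09 in KO-695 and -0.15 in KO-694, and from -0.07 to 0.11 among the HET libraries. The 18 values of KO against WT had a median of -0.14, with 16 negative.

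Without KO-738, 12 of the 34 passed in KO against WT (35.3%, against 15% of 19539 genes tested), of which 10 were lower in KO (29.4%, against 5.21%). They were the enzyme genes Dhcr7 (-0.51), Idi1 (-0.38), Tm7sf2 (-0.31), Lss (-0.30), Fdps (-0.28), Cyp51 (-0.27), Sc5d (-0.21) and Msmo1 (-0.20) and the control genes Stard4 (-0.27) and Insig1 (-0.24), with edgeR adjusted p from 0.00698 to 0.0478. The median of the 18 enzymes was then -0.20, with 15 negative. In KO against HET, 11 of the 34 passed without KO-738, against 12.5% of the genes tested, and 9 of them were lower in KO, against 4.59%. Since KO-738 is the KO library with the highest enzyme levels, leaving it out lowers the KO mean. It also leaves 3 of 4 KO animals numbered below 700, a range with no WT animal, so genotype and number range are largely confounded in that fit. With the number range as a term as well, 6 of 34 passed without KO-738 (against 7.55% of all genes), Dhcr7 (-0.71), Mvd (-0.68), Lss (-0.46), Tm7sf2 (-0.45), Cyp51 (-0.32) and Insig1 (-0.29), and the median of the 18 was -0.24 with 17 negative. With that term and all libraries, 0 of 34 passed, against 0.913% of all genes. The calls were also absent when KO-738 stayed and others left: 0 of 34 passed without KO-695 and KO-739 (against 0.717% of all genes), and among animals numbered 700 and above, which leaves 2 KO libraries including KO-738, the median of the 18 was -0.04 with 13 negative. KO-738 also had the lowest sums of macrophage and fibroblast markers of the KO libraries and the highest of principal cell markers, 66594 CPM against at most 55290 CPM in the rest of KO. The principal cell sum is weighted by Crisp1, with 30435 CPM in KO-738 and 14933 to 23717 CPM in the rest of KO. KO-738 was also the highest of KO for Adam28, at 2885 CPM against at most 2829 CPM, but not for any other principal cell marker listed. The sum of sperm and germ cell markers was lowest of KO in KO-738, at 57.4 CPM, and highest in KO-696, the library with the lowest enzyme sum, at 253 CPM. KO-739 had 95.25 CPM of these markers, against 164 CPM in KO-694 and 160 CPM in KO-695, and a lower enzyme sum than both. Fibroblast markers summed to 2750 CPM in KO-694, 3070 CPM in KO-695, 3507 CPM in KO-696, 1990 CPM in KO-738 and 3536 CPM in KO-739. The part of cell make-up in the enzyme values was not tested.

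**Figure D4:**
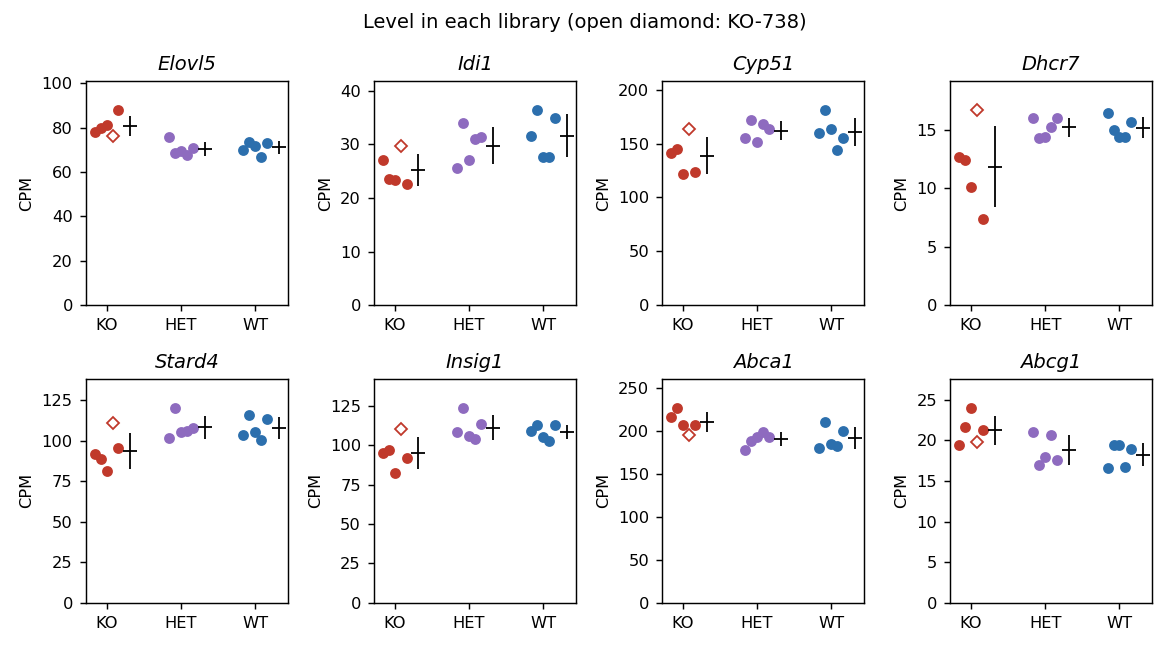
CPM of 8 genes in each library, in KO, HET and WT from left to right, with the mean and SD beside each group and KO-738 as an open diamond. The diamond sits among the HET and WT points for Idi1, Cyp51, Stard4 and Insig1 and at the top for Dhcr7, while for Elovl5 the KO points lie above both other groups.

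In the control group, 5 of 5 values were below 0 in KO against WT, with a median of -0.19, and 0 of 5 passed the edgeR test. Stard4 encodes a carrier that moves cholesterol between membranes and is itself a sterol-regulated gene. Stard4 had 92.0, 88.6, 81.2, 111 and 95.3 CPM in KO, against 102, 120.2, 105, 106 and 108 CPM in HET and 104, 116, 105, 100.4 and 114 CPM in WT. Again KO-738 alone among KO libraries lay inside the WT range, and the log2 fold change of KO over WT was -0.20 ± 0.07 (edgeR adjusted p = 0.102). Insig1, the sterol-sensing brake, had 94.8, 96.7, 82.5, 111 and 91.9 CPM in KO, against 108, 124, 106, 104 and 114 CPM in HET and 109, 113, 105, 102 and 113 CPM in WT. Its pattern was that of Stard4, with a log2 fold change of -0.19 ± 0.07 in KO against WT (edgeR adjusted p = 0.106) and -0.22 ± 0.07 in KO against HET (edgeR adjusted p = 0.0884).

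The SREBP genes themselves and Scap followed another pattern over the libraries. Srebf1, which encodes SREBP1, had 185, 259.8, 206, 182 and 116 CPM in KO, against 213, 165, 154, 189 and 182 CPM in HET and 254, 203, 247, 226 and 139.8 CPM in WT. The highest and the lowest of all 15 libraries were both KO, and WT-726 was nearly as low as KO-739. The log2 fold change was -0.17 ± 0.19 in KO against WT and -0.24 ± 0.19 in HET against WT. Scap had 105, 129, 106, 110.3 and 77.2 CPM in KO, against 110.4, 99.2, 100.4, 115 and 108 CPM in HET and 137, 119, 132, 128 and 95.6 CPM in WT, with a log2 fold change of -0.21 ± 0.11 in KO against WT (edgeR adjusted p = 0.283) and -0.20 ± 0.11 in HET against WT (edgeR adjusted p = 0.981). HET overlapped WT through WT-726 alone, and KO through WT-726 and KO-695. Srebf2, which encodes the SREBP that drives cholesterol synthesis, had -0.14 ± 0.13 in KO against WT.

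Srebf1, Srebf2, Scap, Mvk, Pmvk, Mvd and Fasn share a high GC content, from 56.3% for Mvk to 59.1% for Scap. With the genes tested cut into 5 equal classes by the GC content of the longest transcript, they are the 7 members in the highest class. Over all its genes that class spans 55.2% to 72.8% GC. GC content was known for 90.3% of the genes tested. Over all genes in that class, the median log2 difference from the WT mean was -0.30 in KO-739, -0.18 in HET-715 and -0.21 in WT-726, and 0.17 in KO-695 and 0.11 in WT-709. Over the 7 members it was -0.67 in KO-739, -0.33 in HET-715 and -0.34 in WT-726, and 0.22 in KO-695 and 0.18 in WT-709. In KO-694 and KO-696 the 7 members lay at -0.18 and -0.19, whereas the class lay at -0.025 and -0.015. The other 27 members had medians of -0.16 in KO-739, -0.03 in HET-715 and 0.04 in WT-726. With an offset for GC content in the fit, 4 of 34 passed in KO against WT (against 9.52% of all genes), Elovl5 (0.17), Stard4 (-0.20), Scap (-0.15) and Idi1 (-0.30).

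**Figure D5:**
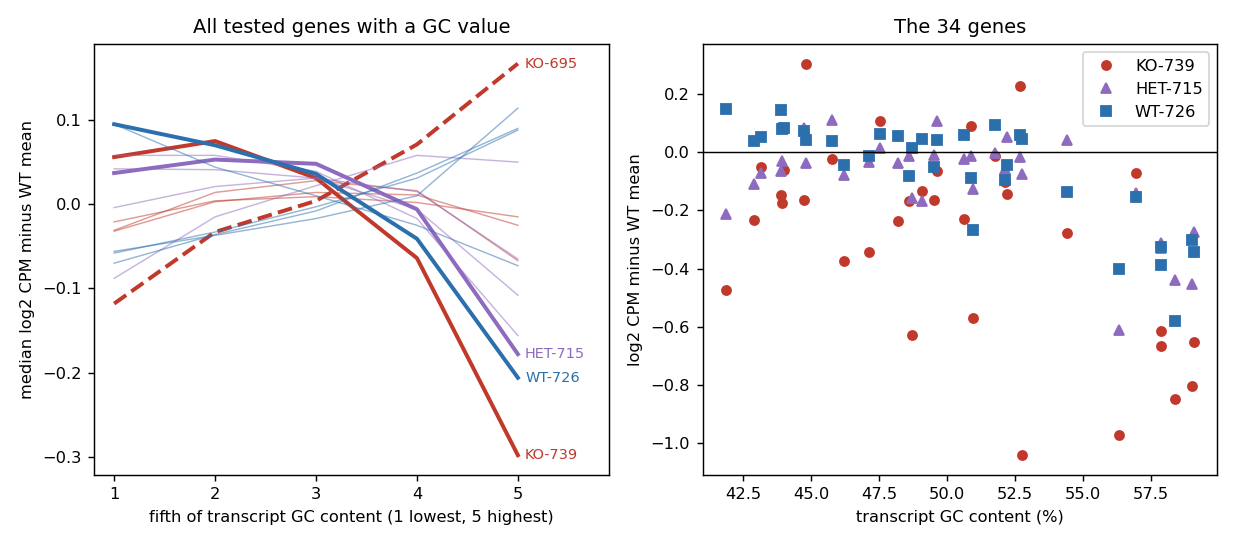
Left, the median log2 difference from the WT mean over all genes tested, by class of transcript GC content (1 lowest, 5 highest), with 1 line per library and KO-739, HET-715, WT-726 and KO-695 drawn thick. Right, the same difference for each of the 34 genes against its GC content in KO-739, HET-715 and WT-726. KO-739, HET-715 and WT-726 fall to between -0.30 and -0.18 in the highest class, and the members with the most GC are low in all of these libraries.

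The fatty acid genes had 5 of 9 values below 0 in KO against WT, with a median of -0.01, and Elovl5 was the gene of the 9 that passed. Fasn, the fatty acid synthase, had 367, 426, 371, 317 and 217 CPM in KO, against 378, 299, 275, 314 and 301 CPM in HET and 384, 335, 378, 383 and 264 CPM in WT. KO-739 and WT-726 were lowest, KO-695 was highest, and the log2 fold change of KO over WT was -0.04 ± 0.15. Acly had 1432, 1473, 1369, 1386 and 1275 CPM in KO, against 1474, 1476, 1317, 1414 and 1444 CPM in HET and 1353, 1442, 1331, 1447 and 1282 CPM in WT, with a log2 fold change of 0.02 ± 0.06. The 3 groups overlapped throughout for both genes.

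Elovl6, which elongates saturated and monounsaturated fatty acids, had the smallest p of the 9 in HET against WT. It had 281, 292, 301, 314 and 290.4 CPM in KO, against 293, 344, 321, 331 and 331 CPM in HET and 313, 317, 277, 289 and 320.5 CPM in WT. In HET, 4 of 5 libraries lay above all WT libraries, with a log2 fold change of 0.10 ± 0.05 in HET against WT (edgeR adjusted p = 0.981) and -0.04 ± 0.05 in KO against WT. Scd1, the desaturase typical of fat and sebaceous cells, had 395, 663, 354, 514 and 342 CPM in KO, against 443, 404, 424, 462 and 461 CPM in HET and 406, 523, 450.1, 374 and 430.1 CPM in WT. KO-695, the library with the most fat cell marker RNA, was the highest of all 15. The lowest were KO-739, with 139 CPM of these markers, above all WT libraries, and KO-696, with 78.8 CPM. The log2 fold change of KO over WT was 0.06 ± 0.15, and -0.12 ± 0.11 without KO-695, and the part of fat cells was not tested. Acaca, Scd2, Fads1 and Fads2 had values between -0.07 and 0.07 in this comparison, each with groups that overlapped. KO-695 was the highest of all 15 libraries for 4 of the 9 genes and KO-739 the lowest for 5, and shares over all genes are not given here.

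The efflux genes lay above WT in KO, and neither passed the edgeR test with all libraries. Abca1, the pump that loads cholesterol onto apolipoproteins, had 216, 227, 207, 195 and 206 CPM in KO, against 178, 188, 193, 199 and 193 CPM in HET and 181, 210.0, 185, 183 and 199.993 CPM in WT. Of the KO libraries, 2 lay above all WT libraries, and KO-738 was the lowest. The log2 fold change was 0.13 ± 0.05 in KO against WT (edgeR adjusted p = 0.134), and 0.16 without KO-738 (edgeR adjusted p = 0.0428). Abcg1, which passes cholesterol on to lipoprotein particles, had 19.5, 21.6, 24, 19.8 and 21.3 CPM in KO, against 21, 17, 17.9, 20.6 and 17.6 CPM in HET and 16.6, 19.4, 19.5, 16.7 and 18.9 CPM in WT. The lowest KO library, at 19.4683 CPM, all but touched the highest WT library, at 19.4677 CPM. Its log2 fold change was 0.22 ± 0.08 in KO against WT (edgeR adjusted p = 0.0989) and 0.05 ± 0.08 in HET against WT.

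Macrophages are rich in both pumps. Of 12 macrophage markers 11 had values above 0 in KO against WT and 7 passed the test as higher (4.40% of all genes did), with a summed level between 165 and 251 CPM in KO, between 159.9 and 182 CPM in HET and between 142 and 165 CPM in WT. Of 8 fibroblast markers 8 had values above 0 and 7 passed, and of 6 endothelial markers 6 and 5, with endothelial sums between 136 and 200.5 CPM in KO, between 90.5 and 124 CPM in HET and between 82.6 and 107 CPM in WT. Of 12 principal cell markers 0 passed the edgeR test, of 11 fat cell markers tested 1 passed as higher, and 0 of the 5 smooth muscle and 5 basal cell markers passed. Of 12 sperm and germ cell markers 3 passed as higher and of 5 ciliated cell markers 1, and of 5 clear cell markers 1 passed as lower. Of 8 skeletal muscle and 3 steroid-producing cell markers tested 0 passed, with steroid-producing sums between 36.3 and 67.3 CPM in KO, between 58.3 and 85.2 CPM in HET and between 65.4 and 72.9 CPM in WT. None of the markers tested was at 0 in all 15 libraries, and the part of these cells in the values of Abca1, Abcg1 or Elovl5 was not tested.

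Other genes of the same pathways were read from 5 further lists. Of 11 other isoprenoid and sterol enzymes, 15 other genes of SREBP and liver X receptor control, 26 other fatty acid synthesis genes and 19 fatty acid oxidation genes tested, 0 passed the edgeR test in KO against WT. The medians were -0.02, -0.01, -0.09 and 0.02 on the log2 scale, so the other fatty acid synthesis genes, with 19 of 26 values negative, lay furthest from 0. The smallest p-values of the isoprenoid list belonged to Nus1, which works on dolichol (-0.20 ± 0.06, edgeR adjusted p = 0.0720), and Pdss2, which builds the tail of ubiquinone (-0.18 ± 0.09). Those of the control list belonged to Erlin2 (-0.08 ± 0.05) and Erlin1 (-0.13 ± 0.08), which act in sterol-driven degradation in the endoplasmic reticulum. Among the fatty acid genes they were Acsl4, which activates arachidonic acid (-0.25 ± 0.08, edgeR adjusted p = 0.0653), and Acsl6 (0.59 ± 0.19, edgeR adjusted p = 0.0801). Among the oxidation genes they were Acadm, a medium-chain dehydrogenase gene (0.24 ± 0.07, edgeR adjusted p = 0.0571), and Slc25a20, the mitochondrial carnitine carrier gene (0.22 ± 0.08, edgeR adjusted p = 0.0858). None of these 8 passed. In KO against HET, Acacb, which makes the malonyl-CoA that restrains fatty acid oxidation, was higher, at 14.0 ± 2.00 CPM in KO and 9.37 ± 1.196 CPM in HET (0.58 ± 0.12, edgeR adjusted p = 0.0308). In KO against WT Acacb was not among the genes that passed.

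Sterol transport was the list in which genes passed in KO against WT: 5 of 27 tested (18.5%, against 6.0% of all genes), 3 higher and 2 lower. The lists were chosen with earlier results of these data known, so these shares cannot show that sterol transport is particularly affected. Cd36, a scavenger receptor for fatty acids and oxidised lipoproteins, had 19.2, 55.9, 8.64, 18.7 and 30.5 CPM in KO, against 12.5, 8.32, 5.43, 5.60 and 6.71 CPM in HET and 4.80, 12.3, 4.64, 4.42 and 7.05 CPM in WT. KO-695, with the most fat cell marker RNA, was highest and KO-696 lay inside the WT range, and Cd36 rose by 2.01 ± 0.46 (edgeR adjusted p = 0.0256). Cyp27a1, which makes 27-hydroxycholesterol, rose by 0.41 ± 0.11 to 30.8 ± 4.15 CPM in KO, against 23.2 ± 3.60 CPM in WT (edgeR adjusted p = 0.0375). Pltp, a phospholipid transfer protein gene, rose by 0.37 ± 0.10 (edgeR adjusted p = 0.0495). Ch25h, which makes 25-hydroxycholesterol, had 35.1, 26.3, 23.7, 56.3 and 24.3 CPM in KO, against 46.8, 41.1, 42.5, 50.1 and 50.2 CPM in HET and 66.1, 49.6, 66.9, 62.1 and 45.6 CPM in WT. KO-738 alone among KO libraries lay inside the WT range, and the log2 fold change was -0.81 ± 0.21 (edgeR adjusted p = 0.0340). Stard5, a lipid-binding relative of Stard4, was lower, at 46.5 ± 8.42 CPM in KO and 60.2 ± 4.31 CPM in WT (-0.37 ± 0.10, edgeR adjusted p = 0.0372). The calls depended on single libraries. Without KO-695, 1 of 27 passed, against 2.90% of all genes: Cd36, at 1.56 ± 0.38 (edgeR adjusted p = 0.0458). The count was also 1 without KO-694, KO-696, WT-719 or WT-726, against 1.63% to 3.38% of all genes. It was 0 without WT-709, WT-720 or WT-723, against 2.22% to 2.79% of all genes. Without KO-738, 8 of 27 passed, against 15% of all genes. Without KO-695 and KO-739 together 0 passed, against 0.717% of all genes. With the animal number range as a term 0 passed, against 0.913% of all genes. Over the 15 fits with 1 library left out, the call was lost in 4 for Cd36, all WT, in 8 for Ch25h, in 10 for Cyp27a1, in 11 for Stard5 and in 12 for Pltp. In HET against WT 0 of 27 passed, and whether these changes depend on the make-up of the tissue was not tested.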

How the data were processed

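The authors deposited raw counts per NCBI Gene ID. Per the labels' protocols, RNA was extracted with TRIzol, treated with DNase and made into libraries with a TruSeq Stranded mRNA kit. The submitters' processing notes name FastQC, HISAT2 2.0.5, featureCounts, Subread 1.4.6p5 and build GRCm38.p6; the strand setting and annotation release are not given in the sources used here. A RefSeq table named 40290 of 41591 IDs. Counts were tested with edgeR 4.0.16 (TMM, filterByExpr, robust quasi-likelihood test) run in R 4.3.3 on all 15 libraries together, with 12 residual degrees of freedom and Benjamini-Hochberg adjustment over 19388 genes at 0.05, two-sided; the fit was tested on simulated data. The biological coefficient of variation, a value common to all genes, was 16.3% at 20.3 to 42.0 M counts per library. For members with few counts and little spread, such as Dhcr7 with at least 247 counts per library, counting error need not be small beside the spread. CPM uses TMM sizes, and length is the exon union of the basic GENCODE M21 set. Members and lists were chosen with earlier results of these data known. Per-library values are given for members that passed and, per role, for the highest WT level, the largest KO difference and the smallest p; Hmgcs1, Insig1, Fasn and Scd1 were added after their values were seen. Of the other lists, genes that passed or the 2 smallest p-values are named. Alternatives used DESeq2 1.42.0, limma 3.58.1, other filters and scalings, left-out libraries and, chosen after seeing the data, a GC offset and a fit without KO-738 with the animal number range as a term.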

Additional observations from a re-analysis of the deposited data

Results flagged for a closer look

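Among 102 sets of 5 libraries (34 genes in each of 3 genotypes), 3 held a library far from the other 4, by a gap above 0.71 of the range (Dixon's criterion); chance alone flags about 1 in 20 such sets. Msmo1, a sterol methyl oxidase gene, had 155.2 CPM in KO-738, against at most 125.4 CPM in the other KO libraries, with a gap of 0.735 of the range. Fdft1, the squalene synthase gene, had 168.7 CPM in KO-696, against at least 192.2 CPM in the other KO libraries, with a gap of 0.712 of the range. Lss had 63.72 CPM in HET-715, against at least 74.25 CPM in the other HET libraries, with a gap of 0.896 of the range.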

How the results depend on the processing

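The count of the 34 genes that passed in KO against WT was 1 with all libraries. It was 0 without a filter on low counts, in a fit of KO and WT alone, with the animal number range as a term, among animals numbered 700 and above and without KO-695 and KO-739, 2 with DESeq2 (Elovl5, Idi1), 2 with limma voom (Elovl5, Abca1), 4 with the GC offset, 6 without KO-738 with the number range as a term (chosen after seeing the data), 9 without HET-693 and KO-738, and 0 to 12 with each library left out. Over all genes the count of 1163 became 1930 with DESeq2, 287 in the fit of 2 groups, 177 with the number range as a term, 0 among animals numbered 700 and above, 2722 without HET-693 and KO-738, 141 without KO-695 and KO-739, 1845 with the GC offset, and 318 to 2923 with each library left out. In KO against HET, the members' count of 1 was 0 without a filter, in the fit of 2 groups, with the number range as a term, in either number range alone and without KO-695 and KO-739, 8 with limma voom, 6 without HET-693 and KO-738, 10 without KO-738 with the range term, and 0 to 11 with each library left out. The count over all genes, 380, became 1233 with DESeq2, 1907 with limma voom, 0 in the fit of 2 groups and among animals numbered 700 and above, 2 below 700, 1660 without HET-693 and KO-738, 3 without KO-695 and KO-739, 742 with the GC offset, 1939 without KO-738 with the range term, and 0 to 2443 with each library left out. In HET against WT, DESeq2 called 1 gene, and the members' median ran from -0.0322 to 0.0379 with each library left out. Values near 0 changed sign: in KO against WT Ebp was -0.0007 with limma voom, -0.0128 without KO-738 with the range term and -0.0246 without KO-695 and KO-739, Acly was -0.0392 with the number range term, -0.0703 with that term and without KO-738, -0.0408 among animals numbered 700 and above and -0.0081 to 0.0455 with each library left out, and Nsdhl was 0.0403 among animals numbered 700 and above. Abcg1 in HET against WT ran from -0.0032 to 0.0795 with each library left out. The causes were not tested. Fewer samples or genes entered the fits that left some out. No paired analysis was possible because the animal numbers of the 3 genotypes do not match.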

Other observations

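Acat3, the near copy of Acat2, had 31.5 CPM in KO-694 and 31.3 CPM in KO-739, with 20.1 to 21.4 CPM in the rest of KO, between 19.9 and 26.5 CPM in HET and between 21.5 and 23.6 CPM in WT. Idi2, the relative of Idi1, had 1 count in KO-696 and 0 in the other 14 libraries.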
